A study of Homo sapiens with 18 samples.

Results

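The comparison described here is IMR-32 cells treated with BRM014 against IMR-32 cells treated with DMSO. It was chosen by sample label: 2 BRM014 libraries and 2 DMSO libraries, 4 of the 18 libraries in the series. IMR-32 is an established human neuroblastoma line with amplified MYCN, and the labels give these cells as wild type. Treated cells received 1 uM BRM014, an inhibitor of the chromatin remodelling ATPases SMARCA4 (BRG1) and SMARCA2 (BRM). Control cells received an equal volume of DMSO, the solvent. The cells of all 4 libraries were given 500 uM 4-thiouridine (4sU) for 2 h before harvest, so that RNA made in that time carried the analogue. The RNA was treated with iodoacetate, which modifies the 4sU, and messenger RNA was captured on poly(dT). The same treatment was given to KELLY and SK-N-DZ, other neuroblastoma lines, with 4 libraries each, and these were used to estimate the spread and to ask where the IMR-32 response differed. The time of exposure to BRM014 was not given in the sources used here. IMR-32 is 1 line, and the values describe that line.

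SMARCA4 and SMARCA2 are alternative motors of the SWI/SNF (BAF) complexes, which use ATP to slide or evict nucleosomes at enhancers and promoters and so keep these sites open to transcription factors. Neuroblastoma arises from the sympathetic branch of the neural crest. Its adrenergic cells are held in that state by a circuit of factors that includes HAND2, GATA3, ISL1, TBX2 and MYCN, whose genes lie beside large clusters of enhancers.

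The BRM014 libraries held 741970 and 775064 gene counts, with 13327 and 13517 genes detected, and the DMSO libraries held 1438139 and 1148208, with 14516 and 14513 genes detected. The gene counts therefore differed between the groups, and low genes were measured less well with BRM014. The deposited counts are named as conversion counts, and unlabelled KELLY libraries held only 5395 and 4432 gene counts. The parts of sequencing depth and of the amount of labelled RNA in these totals were not tested. Reads without a gene feature made up 57.3% and 57.4% of reads in BRM014 libraries and 50.8% and 53.5% in DMSO libraries. Levels are given as CPM, counts scaled to a common library total with TMM factors and not corrected for gene length. The labelled identity was checked against 12 markers of adrenergic neuroblastoma. All 12 were detected with DMSO and all but DBH with BRM014. MYCN, PHOX2A, HAND2, GATA3, ISL1 and ELAVL4 each had at least 212 counts in every library. Other markers were low. CHGA had 7 and 2 counts with BRM014, against 12 and 20 with DMSO, and CHGB had 7 and 9, against 19 and 22. STMN2 had 22 and 34 counts with BRM014, against 93 and 47 with DMSO. TH and DBH, enzymes on the route to noradrenaline, were near 0: TH had 0 and 0 counts with BRM014, against 0 and 1 with DMSO, and DBH had 0 and 0 counts with BRM014, against 3 and 4 with DMSO. Of 6 mesenchymal markers 3 had 0 counts in all 4 libraries, and the 6 summed to 72.8 and 82.6 CPM on raw totals with BRM014 and 106 and 105 with DMSO. Of 5 Schwann cell markers 4 were at 0 in all libraries, as were both epithelial markers, and endothelial and blood markers reached at most 2 counts in a library. SMARCA4, the inhibitor's target, had 81.0 and 82.8 CPM with BRM014, against 91.8 and 109 CPM with DMSO (log2 change -0.29, SE 0.23, adjusted p = 0.468). SMARCA2 had 9 and 7 counts with BRM014, against 27 and 18 with DMSO (log2 change -0.68, SE 0.92, adjusted p = 0.717). Neither was called, and since an inhibitor need not change the RNA of its target, neither gene checks the labels.

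BRM014 changed many genes in both directions. Of 12444 genes tested, 1540 (12.4%) passed a threshold of 0.05 on the Benjamini-Hochberg adjusted p of edgeR's quasi-likelihood test, 689 higher (5.54%) and 851 lower (6.84%) with BRM014. The median size of a called change was 0.89 on the log2 scale for higher genes and 1.10 for lower genes. A log2 change over 2 was seen in 79 higher and 179 lower genes. Called genes nearly all had groups that did not overlap, 685 of the 689 and 850 of the 851, but 51.8% of all tested genes showed this too. Where groups of called genes are said below not to overlap, this describes the libraries and adds no support to the call. The median change over all tested genes was -0.04. DESeq2 on the same libraries called 1471 genes, 805 higher and 666 lower, so the balance of directions (44.7% higher in edgeR, 54.7% in DESeq2) depends on the method. The count was 956 without BRM014 replicate 1, 828 without DMSO replicate 1 and 991 without DMSO replicate 2. In bulk RNA of this kind, fewer cells making an RNA and less of it made per cell cannot be told apart. The scaling sets each gene against the rest of its library, which hides any shift that all genes share.

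**Figure D1:**
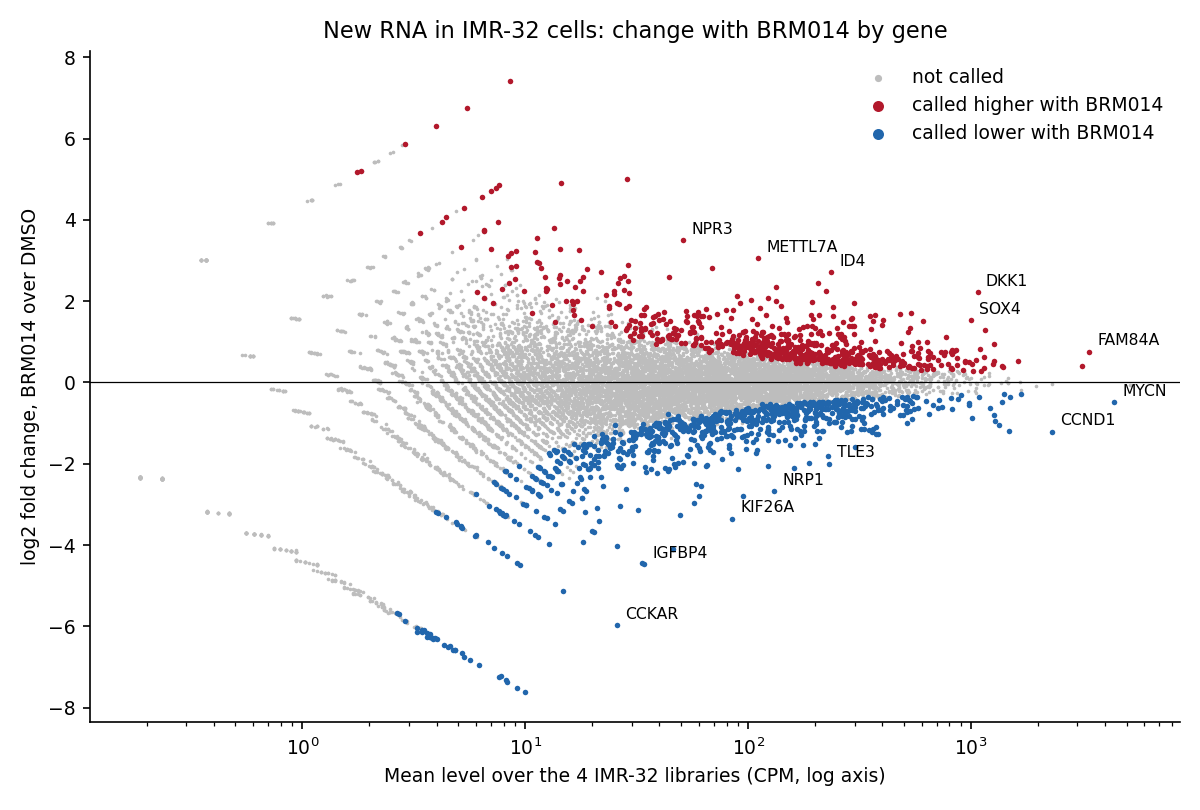
The log2 fold change of each tested gene, BRM014 over DMSO in IMR-32, is plotted against its mean CPM over the 4 libraries on a log axis. Each point is a gene, red where it was called higher with BRM014 (689), blue where called lower (851) and grey where not called; rows of points at the left are genes with few counts.

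The called genes differed in base composition and length. The median GC content of the longest annotated transcript was 41.6% for higher genes, 52.8% for lower genes and 47.7% for genes not called. The median share of T in it was 29.2% for higher genes, 23.3% for lower genes and 25.6% for genes not called. Across 5 bins of equal gene number, ordered from the lowest to the highest GC content, the median log2 change was 0.18, 0.06, -0.07, -0.25 and -0.46. The share called higher was 12.4% in the lowest bin and 1.49% in the highest, and the share called lower was 3.47% and 9.74%. Higher genes also had longer transcripts, with a median of 5207 bases, against 3670 bases for lower genes and 3461 bases for genes not called. A smooth correction of each library for GC content and length left 1277 calls, of which 1038 were shared with the uncorrected fit. The part of GC content in the change of any one gene was not tested beyond this correction, and that of T content was not tested.

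**Figure D2:**
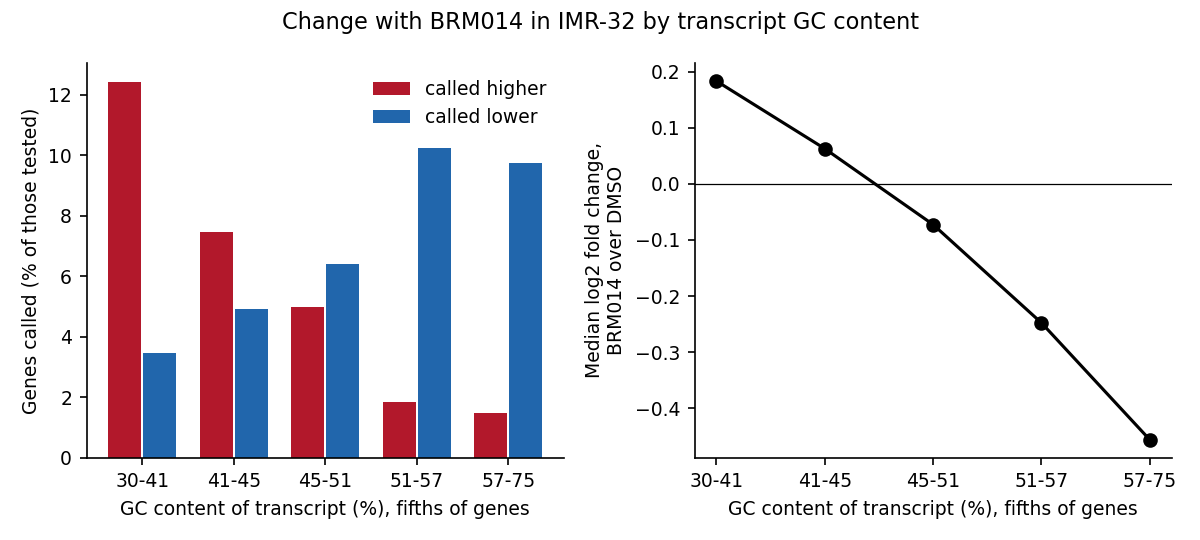
Left, the percentage of tested genes called higher (red) or lower (blue) with BRM014 in each of 5 bins of genes by transcript GC content; right, the median log2 fold change of the same bins. The share called higher is 12.4% in the lowest bin and 1.49% in the highest, and the median is 0.18 and -0.46.

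The 15 largest rises among well-counted genes had log2 changes of 1.96 to 3.50. NPR3, the clearance receptor for natriuretic peptides (chr5:32689070-32791724, plus strand), had 78.1 and 109.5 CPM with BRM014, against 9.71 and 6.54 CPM with DMSO (log2 change 3.50, SE 0.65, adjusted p = 2.9e-05). METTL7A, a putative methyltransferase, had 242 and 152 CPM with BRM014, against 17.2 and 30.8 CPM with DMSO (log2 change 3.05, SE 0.32, adjusted p = 4.31e-13). ID4, which binds basic helix-loop-helix factors and blocks their contact with DNA (chr6:19837386-19840684, plus strand), had 390.5 and 425 CPM with BRM014, against 57.5 and 67.2 CPM with DMSO (log2 change 2.71, SE 0.24, adjusted p = 3.05e-16). In these genes both treated libraries lay above both controls, which was a condition for entering the 15. DKK1, a secreted inhibitor of Wnt signalling (chr10:52314296-52318042, plus strand), had 1734 and 1784 CPM with BRM014, against 394 and 364 CPM with DMSO (log2 change 2.21, SE 0.11, adjusted p = 1.83e-30). The libraries within each group were close to each other, and the adjusted p was the smallest among the named genes. The neural crest factors FOXC1 (log2 change 2.26, adjusted p = 7.87e-16) and SOX9 (log2 change 2.12, adjusted p = 5.26e-07) rose, as did the immediate early gene EGR1 (log2 change 2.08, adjusted p = 4.01e-07). PNRC1, a nuclear receptor coactivator, had 298 and 400.1 CPM with BRM014, against 62.0 and 67.2 CPM with DMSO (log2 change 2.44, SE 0.21, adjusted p = 1.81e-16). Further rises were those of CCNG2, an unconventional cyclin (log2 change 1.97, adjusted p = 6.12e-16), PDCD4, an inhibitor of translation initiation (log2 change 2.03, adjusted p = 3.29e-10), KDM7A, a histone demethylase (log2 change 2.00, adjusted p = 8.47e-13), and CPEB2, which binds polyadenylation elements in messenger RNA (log2 change 2.35, adjusted p = 7.29e-15). ARHGEF3, an exchange factor for small GTPases (log2 change 2.81, adjusted p = 8.54e-09), DOK6, an adaptor of receptor tyrosine kinases (log2 change 2.59, adjusted p = 5.71e-07), and SNAP91, which assembles clathrin coats at synapses (log2 change 1.96, adjusted p = 4.07e-08), completed the 15. No alternative tried ended the call of any of these 15 genes.

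The largest falls took genes close to 0. CCKAR, a receptor for cholecystokinin (chr4:26481400-26490462, minus strand), had 0 and 1 counts with BRM014, against 86 and 40 with DMSO. With 1 count in all BRM014 libraries, its depth-scaled level was 72.7 times higher with DMSO, with an exact 95% counting interval of 12.8 to 2895 (adjusted p = 4.05e-05). IGFBP4, a secreted binding protein of insulin-like growth factors (chr17:40443461-40457731, plus strand), had 1 and 3 counts with BRM014, against 88 and 70 with DMSO (log2 change -4.46, SE 0.56, adjusted p = 7.85e-10). Both genes were well counted in each DMSO library and nearly absent from each BRM014 library. DLX3, a homeobox factor, had 2 and 2 counts with BRM014, against 97 and 60 with DMSO (log2 change -4.44, SE 0.82, adjusted p = 3.01e-05). MFAP4, a protein of matrix microfibrils, had 5 and 2 counts with BRM014, against 126 and 86 with DMSO (log2 change -4.09, SE 0.62, adjusted p = 3.5e-07). The treated libraries lay below the controls in both genes, as the choice of genes required. Without BRM014 replicate 2 the fitted log2 change of CCKAR was -9.03. KIF26A, an atypical kinesin, had 17.7 and 12.6 CPM with BRM014, against 163 and 147 CPM with DMSO (log2 change -3.35, SE 0.38, adjusted p = 2.31e-11). Other genes among the 15 largest falls were TNKS1BP1, which binds tankyrase (log2 change -3.25, adjusted p = 5.64e-10), TMEM132A, a membrane protein (log2 change -3.03, adjusted p = 1.68e-06), NEDD9, a scaffold of focal adhesions (log2 change -2.97, adjusted p = 2.08e-07), PGF, placental growth factor (log2 change -2.80, adjusted p = 5.33e-12), CNTN2, an axonal adhesion molecule (log2 change -2.80, adjusted p = 1.81e-06), NRP1, a receptor of semaphorins and VEGF (log2 change -2.68, adjusted p = 2.57e-17), ADGRG1, an adhesion receptor (log2 change -2.61, adjusted p = 0.000209), SHMT2, the mitochondrial serine hydroxymethyltransferase (log2 change -2.54, adjusted p = 1.08e-08), and RCOR2, a corepressor of histone demethylation complexes (log2 change -2.51, adjusted p = 9.53e-09). Both treated libraries lay below both controls in each gene because this was a condition for entering the list, so it adds no support. No alternative with a value ended the call of any gene named here, and DESeq2 gave none for CCKAR.

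**Figure D3:**
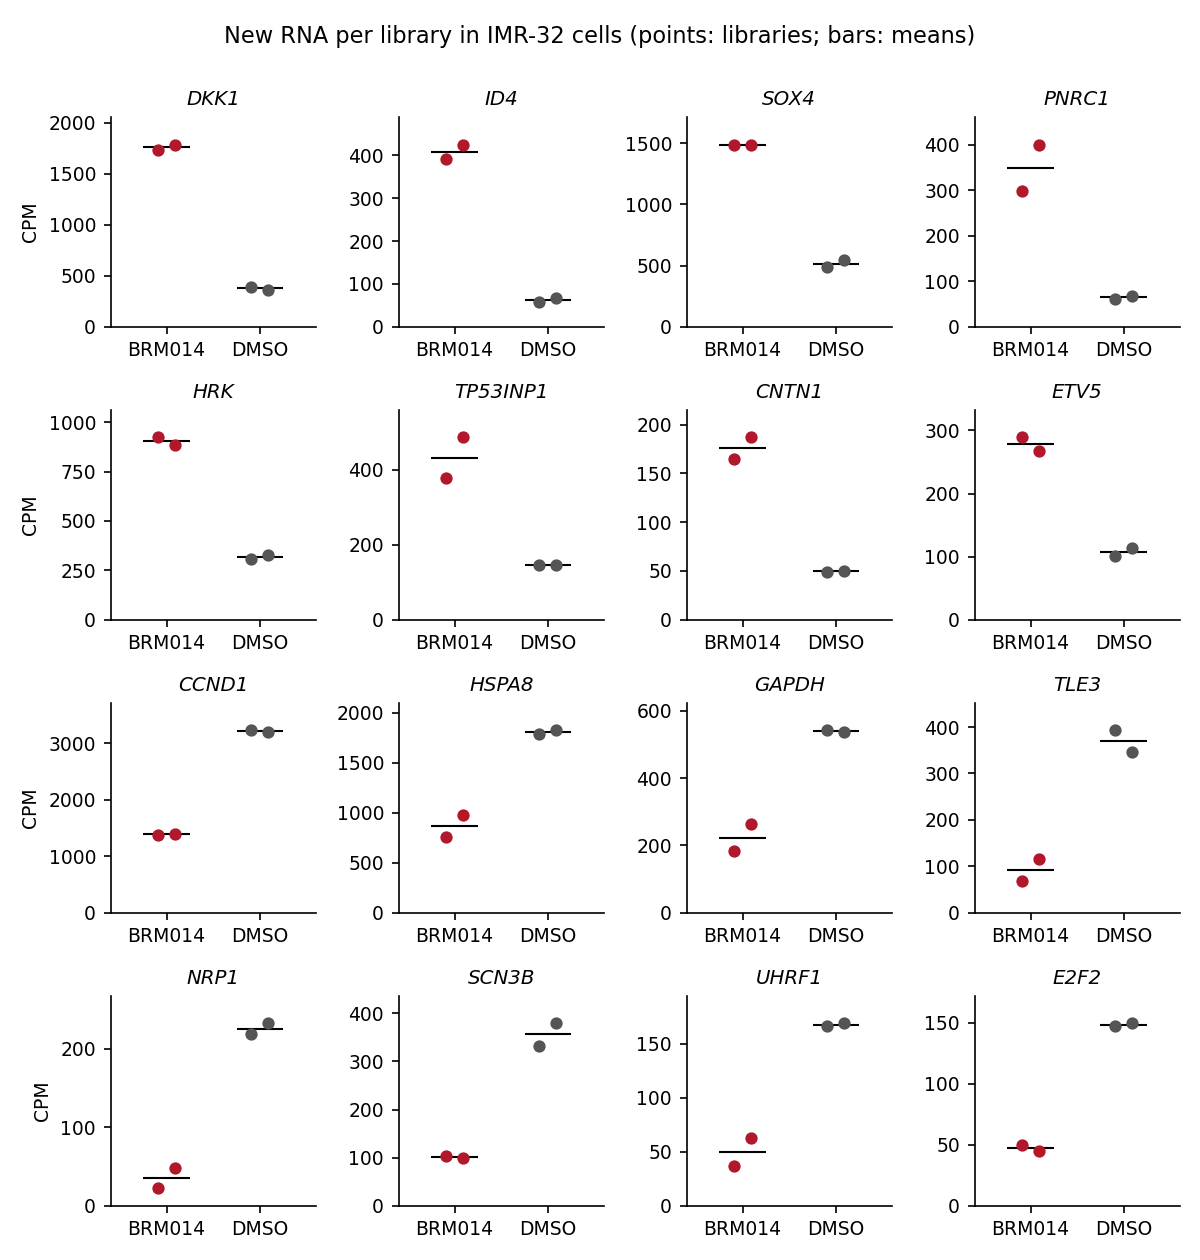
CPM in each IMR-32 library is shown for 16 genes described in the text, with BRM014 (red) left of DMSO (grey); points are libraries, bars are means of 2 and every axis starts at 0. In all 16 genes, as in nearly all called genes, the 2 groups do not overlap. The first 8 genes are higher with BRM014 and the last 8 lower.

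Among the called genes with the highest CPM, changes were smaller. MYCN, the amplified oncogene of the line (chr2:15940564-15947007, plus strand), had 3719 and 3629 CPM with BRM014, against 5385 and 4845 CPM with DMSO (log2 change -0.48, SE 0.07, adjusted p = 2.1e-08). CCND1, cyclin D1 (chr11:69641087-69654474, plus strand), had 1384 and 1394 CPM with BRM014, against 3230.3 and 3197 CPM with DMSO (log2 change -1.21, SE 0.08, adjusted p = 1.81e-21). CDK6, its kinase partner, had 1157 and 1154 CPM with BRM014, against 1563 and 1660.4 CPM with DMSO (log2 change -0.48, SE 0.09, adjusted p = 2.08e-05). All 3 fell with groups that did not overlap. HAND2-AS1, a transcript that shares a promoter region with HAND2 on the opposite strand, had 929.8 and 890.1 CPM with BRM014, against 1999 and 2131 CPM with DMSO (log2 change -1.18, SE 0.10, adjusted p = 5.43e-18), while HAND2 had 772 and 713 CPM with BRM014, against 792 and 736 CPM with DMSO (log2 change -0.04, SE 0.10, adjusted p = 0.868). Without a stated strand setting for the counting, reads from an antisense pair such as this one could have gone to either gene. Beta-actin (ACTB) had 1373 and 1233 CPM with BRM014, against 1753 and 1593 CPM with DMSO (log2 change -0.36, SE 0.09, adjusted p = 0.00147). FAM84A (also LRATD1) had 4197 and 4321 CPM with BRM014, against 2589 and 2444 CPM with DMSO (log2 change 0.76, SE 0.09, adjusted p = 2.31e-11). KIF21A, a neuronal kinesin, had 1668 and 1664 CPM with BRM014, against 859 and 883 CPM with DMSO (log2 change 0.93, SE 0.10, adjusted p = 2.55e-12). MAP1B, a microtubule-associated protein (log2 change 0.40, adjusted p = 3.69e-05), the importin TNPO1 (log2 change 0.54, adjusted p = 2.91e-06), the repressor ZBTB18 (log2 change 0.39, adjusted p = 0.00183), SOX11 (log2 change 0.41, adjusted p = 0.000733), MARCKS (log2 change 0.53, adjusted p = 2.7e-05) and CD24 (log2 change 0.47, adjusted p = 0.000232) also rose. The call of MYCN was lost with the correction for GC content and length (-0.13). The log2 change of TNPO1 was 0.28 with the correction for GC content and length. The call of SOX11 was lost without DMSO replicate 1 (0.35). The call of ACTB was lost with the correction for GC content and length (-0.02), without BRM014 replicate 2 (-0.29) and without DMSO replicate 1 (-0.29).

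Many genes for DNA replication fell. Of 23 tested genes for licensing of origins and the replicative helicase, 14 fell and 0 rose, with a median log2 change of -0.73, beside -0.04 over all tested genes, of which 6.84% were called lower. Here and below, the count for a group under an alternative is of members called in either direction. MCM4, a subunit of the MCM helicase, had 109 and 140.4 CPM with BRM014, against 292 and 275 CPM with DMSO (log2 change -1.18, SE 0.16, adjusted p = 1.43e-08). ORC1, a subunit of the origin recognition complex, had 33.9 and 46.3 CPM with BRM014, against 122 and 125 CPM with DMSO (log2 change -1.61, SE 0.29, adjusted p = 1.07e-05). Neither gene had overlapping groups. The origin subunit ORC6 (log2 change -1.29, adjusted p = 7.41e-08) and the helicase subunits MCM3 (log2 change -0.85, adjusted p = 1.29e-05) and MCM5 (log2 change -1.87, adjusted p = 2.07e-05) fell too. Of 21 genes for replicative polymerases, the sliding clamp and its loader, 6 fell and 0 rose (median -0.60). PCNA, the clamp itself, had 112 and 111 CPM with BRM014, against 223 and 198 CPM with DMSO (log2 change -0.92, SE 0.18, adjusted p = 0.000105). FEN1, the flap nuclease (log2 change -0.97, adjusted p = 3.53e-05), the clamp loader subunit RFC5 (log2 change -1.29, adjusted p = 7.98e-05) and the polymerase subunit POLE3 (log2 change -0.81, adjusted p = 0.000988) were lower as well. Of 17 genes for nucleotide synthesis 6 fell and 0 rose (median -0.49), among them RRM2, the inducible subunit of ribonucleotide reductase (log2 change -0.73, adjusted p = 6.65e-07), and CTPS1, CTP synthase (log2 change -0.73, adjusted p = 0.00561). The call of CTPS1 was lost without BRM014 replicate 1 (-0.56) and without DMSO replicate 2 (-0.68). The count for licensing and helicase genes was 9 without BRM014 replicate 2. The count for nucleotide synthesis genes was 3 without DMSO replicate 1 and 2 without DMSO replicate 2.

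Regulators of S phase entry fell as well. Of 17 E2F factors and S-phase cyclins and their partners, 8 fell and 1 rose (median -0.65), the last being E2F5, a repressive E2F factor (log2 change 1.00, adjusted p = 0.0233). E2F2, an activating E2F factor, had 50.1 and 44.9 CPM with BRM014, against 147 and 149 CPM with DMSO (log2 change -1.64, SE 0.22, adjusted p = 4.4e-09). CDC25A, the phosphatase that activates CDK2, had 88.4 and 71.6 CPM with BRM014, against 225 and 199 CPM with DMSO (log2 change -1.41, SE 0.20, adjusted p = 2.19e-08). E2F1 had 53 and 49.1 CPM with BRM014, against 117 and 106 CPM with DMSO (log2 change -1.13, SE 0.23, adjusted p = 0.00016). All 3 had non-overlapping groups. Cyclin E2 (CCNE2, log2 change -1.11, adjusted p = 0.00166) and the pocket protein RBL1 (log2 change -0.98, adjusted p = 0.0011) fell too. Of 12 genes for chromatin assembly behind the replication fork 10 fell and 0 rose (median -0.65). UHRF1, which directs DNA methylation to new strands, had 36.8 and 63.2 CPM with BRM014, against 167 and 169 CPM with DMSO (log2 change -1.74, SE 0.23, adjusted p = 5.1e-09). Of 18 genes for homologous recombination and repair of forks 10 fell and 0 rose (median -0.76), led by MSH6 of mismatch repair (log2 change -0.80, adjusted p = 3.72e-07), the exonuclease EXO1 (log2 change -1.03, adjusted p = 2.73e-06) and RAD51AP1 (log2 change -1.17, adjusted p = 3.24e-05). The call of E2F1 was lost with the correction for GC content and length (-0.61). The call of CCNE2 was lost without BRM014 replicate 2 (-0.96). The count for E2F factors and cyclins was 4 without BRM014 replicate 2 and 5 without DMSO replicate 1. The count for chromatin assembly genes was 6 with median-ratio scaling, 4 with the correction for GC content and length, 6 with DESeq2, 2 without BRM014 replicate 1, 5 without BRM014 replicate 2, 6 without DMSO replicate 1 and 4 without DMSO replicate 2. The count for recombination and repair genes was 5 without DMSO replicate 2.

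Of 30 tested genes for G2/M and mitosis 2 fell (6.67%, beside 6.84% of all tested genes) and 0 rose, with a median of -0.10. MKI67, the proliferation antigen, had 359.5 and 393 CPM with BRM014, against 716 and 698 CPM with DMSO (log2 change -0.91, SE 0.11, adjusted p = 1.58e-10), and PLK1, a mitotic kinase, had 84.0 and 59.0 CPM with BRM014, against 111 and 124 CPM with DMSO (log2 change -0.72, SE 0.22, adjusted p = 0.0167). Both had treated libraries below the controls. The call of PLK1 was lost with the correction for GC content and length (-0.35), without BRM014 replicate 2 (-0.48) and without DMSO replicate 2 (-0.64). The count for mitotic genes was 4 with the correction for GC content and length and 1 without DMSO replicate 2.

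Promoters of the 3 genes of smallest p among the called replication and S-phase genes that held a match to the E2F motif are shown, because E2F sites are the textbook feature of this group. The windows are those of RefSeq (GRCh38.p14), 250 bases before to 50 after the gene's start, read 5′ to 3′ in the direction of the gene, with the E2F match in capitals. E2F2 lies at chr1:23531184-23531483 on the minus strand, UHRF1 at chr19:4909251-4909550 on the plus strand and CDC25A at chr3:48188368-48188667 on the minus strand.
E2F2: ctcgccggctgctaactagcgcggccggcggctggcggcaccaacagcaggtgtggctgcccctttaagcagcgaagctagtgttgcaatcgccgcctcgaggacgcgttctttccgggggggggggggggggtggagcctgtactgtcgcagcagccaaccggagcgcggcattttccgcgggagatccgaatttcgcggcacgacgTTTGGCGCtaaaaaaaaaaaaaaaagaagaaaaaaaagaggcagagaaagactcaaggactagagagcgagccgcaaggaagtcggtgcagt
UHRF1: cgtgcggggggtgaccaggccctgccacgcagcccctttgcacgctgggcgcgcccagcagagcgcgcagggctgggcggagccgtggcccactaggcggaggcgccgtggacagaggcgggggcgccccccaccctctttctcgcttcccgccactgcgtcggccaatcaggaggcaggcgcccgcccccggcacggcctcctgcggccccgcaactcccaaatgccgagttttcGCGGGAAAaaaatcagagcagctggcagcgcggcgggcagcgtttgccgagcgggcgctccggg
CDC25A: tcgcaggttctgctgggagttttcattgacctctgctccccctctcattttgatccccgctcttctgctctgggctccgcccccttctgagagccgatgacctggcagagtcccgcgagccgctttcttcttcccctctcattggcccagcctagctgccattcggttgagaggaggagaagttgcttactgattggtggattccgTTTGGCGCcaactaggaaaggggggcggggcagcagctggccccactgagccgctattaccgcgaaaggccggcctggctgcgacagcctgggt
The motif was searched on both strands as TTTCCCGC, TTTCGCGC, TTTGCCGC or TTTGGCGC. The match in E2F2 began 42 bases before the annotated start, that in UHRF1 14 and that in CDC25A 44. A match was found in 66 of 668 (9.88%) windows of genes called lower, 15 of 572 (2.62%) of genes called higher and 457 of 8631 (5.29%) of genes not called, beside 908 of 27305 (3.33%) of all RefSeq windows. Of the licensing and helicase genes with a window 10 of 19 (52.6%) held a match, of the E2F factors and cyclins 6 of 13 (46.2%), of the polymerase and clamp genes 7 of 18 (38.9%), of the chromatin assembly genes 4 of 11 (36.4%), of the recombination and repair genes 5 of 15 (33.3%), of the nucleotide synthesis genes 1 of 15 (6.67%), and of the mitotic genes 2 of 25 (8.0%). The cell cycle homology region (CHR), searched as TTTGAA, was in 19 of 25 (76.0%) windows of mitotic genes, beside 949 of 9871 (9.61%) over all tested genes. The AP-1 motif (TGANTCA) was in 23 of 572 (4.02%) of higher, 19 of 668 (2.84%) of lower and 346 of 8631 (4.01%) of uncalled windows. A match is a description of these letters, not a shown binding site.

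Regulators of G1 and targets of p53 were mixed. Of 23 p53 targets tested, 6 fell and 1 rose (median -0.42). CDKN1A, the CDK inhibitor p21, had 22.1 and 35.1 CPM with BRM014, against 101 and 84.0 CPM with DMSO (log2 change -1.69, SE 0.32, adjusted p = 3.66e-05). PHLDA3, an inhibitor of AKT, had 2 and 4 counts with BRM014, against 38 and 50 with DMSO (log2 change -3.08, SE 0.69, adjusted p = 0.000668), and the nuclease AEN had 233 and 212 CPM with BRM014, against 456 and 426 CPM with DMSO (log2 change -0.99, SE 0.14, adjusted p = 2.06e-08). TP53INP1, a regulator of autophagy and cell death, moved the other way, with 377 and 486 CPM with BRM014, against 147 and 147 CPM with DMSO (log2 change 1.56, SE 0.16, adjusted p = 1.88e-13). For each of these 4 genes the groups were well apart. Of 13 D cyclins, CDK inhibitors and G1 regulators 3 fell, CCND1 and CDK6, given above, and MYBL2, a MYB factor of cycling cells (log2 change -1.21, adjusted p = 0.000619), and 1 rose, CDKN2D (4 and 16 counts with BRM014, against 1 and 5 with DMSO; log2 change 2.45, adjusted p = 0.0365). The call of MYBL2 was lost with the correction for GC content and length (-0.76) and without BRM014 replicate 2 (-0.93). The call of CDKN2D was lost in the fit of the 4 IMR-32 libraries alone (2.43), with the replicate block (2.40), without BRM014 replicate 2 (1.19) and without DMSO replicate 1 (1.59). Its log2 change was 4.09 without DMSO replicate 2. The count for p53 targets was 4 without BRM014 replicate 2, 4 without DMSO replicate 1 and 4 without DMSO replicate 2. The count for G1 regulators was 2 without BRM014 replicate 2.

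Abundant chaperones of the cytosol fell. Of 24 tested genes for HSP70, HSP90 and their co-chaperones 6 fell and 0 rose (median -0.49). HSPA8, the constitutive HSP70 (chr11:123057489-123063230, minus strand), had 760.3 and 977 CPM with BRM014, against 1793 and 1825 CPM with DMSO (log2 change -1.06, SE 0.10, adjusted p = 3.57e-15). HSP90AB1 had 931 and 924 CPM with BRM014, against 1624 and 1607 CPM with DMSO (log2 change -0.80, SE 0.09, adjusted p = 1.38e-11), and HSP90AA1 had 799 and 818 CPM with BRM014, against 1159 and 1154 CPM with DMSO (log2 change -0.52, SE 0.10, adjusted p = 9.3e-05). None of these genes had overlapping groups. The co-chaperones FKBP4 (log2 change -1.54, adjusted p = 1.45e-06) and DNAJA1 (log2 change -0.58, adjusted p = 0.00113) fell too. Of 13 subunits of the chaperonin CCT and prefoldin 4 fell (CCT3, CCT5, CCT6A and CCT7, log2 changes -0.40 to -0.74), 0 rose, and the median was -0.06. Of 10 mitochondrial chaperones and proteases 2 fell and 0 rose (median -0.64), a called share of 20%, beside 12.4% of all tested genes. HSPD1, the mitochondrial HSP60, had 377 and 383 CPM with BRM014, against 564 and 539.8 CPM with DMSO (log2 change -0.54, SE 0.12, adjusted p = 0.000571), and the protease subunit CLPP had 2 and 0 counts with BRM014, against 21 and 25 with DMSO (adjusted p = 0.005). Of 18 chaperones of the endoplasmic reticulum and genes of its stress response 2 fell and 0 rose (median -0.26; 11.1% called, beside 12.4% of all tested genes), namely the disulphide isomerase PDIA3 (log2 change -0.93, adjusted p = 0.00064) and the HSP70 of that compartment, HSPA5 (log2 change -0.48, adjusted p = 0.0117). The call of HSPA5 was lost without BRM014 replicate 2 (-0.36) and without DMSO replicate 1 (-0.29). The call of CCT3 was lost with median-ratio scaling (-0.44), with the correction for GC content and length (-0.31), with DESeq2 (-0.44), without BRM014 replicate 1 (-0.44), without BRM014 replicate 2 (-0.53) and without DMSO replicate 1 (-0.17). The call of CCT5 was lost with median-ratio scaling (-0.38), with DESeq2 (-0.38), without BRM014 replicate 1 (-0.45), without BRM014 replicate 2 (-0.41), without DMSO replicate 1 (-0.39) and without DMSO replicate 2 (-0.47). The call of CCT6A was lost with median-ratio scaling (-0.35), with DESeq2 (-0.35), without BRM014 replicate 1 (-0.36), without BRM014 replicate 2 (-0.44) and without DMSO replicate 2 (-0.22). The call of CCT7 was lost with the correction for GC content and length (-0.56), without BRM014 replicate 1 (-0.63), without BRM014 replicate 2 (-0.86), without DMSO replicate 1 (-0.80) and without DMSO replicate 2 (-0.69). The fitted change of CLPP, which rests on 2 counts with BRM014, was -7.64 without BRM014 replicate 1, and its call was lost without BRM014 replicate 2 (-2.67) and with DESeq2 (-3.70). The count for CCT and prefoldin was 1 with median-ratio scaling, 2 with the correction for GC content and length, 1 with DESeq2, 0 without BRM014 replicate 1, 0 without BRM014 replicate 2, 1 without DMSO replicate 1 and 1 without DMSO replicate 2. The count for mitochondrial chaperones was 1 with DESeq2 and 1 without BRM014 replicate 2. The count for endoplasmic reticulum genes was 4 in the fit of the 4 IMR-32 libraries alone and 1 without DMSO replicate 1.

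The promoter of HSPA8 (RefSeq, GRCh38.p14, chr11:123062087-123062386 on the minus strand) and that of DNAJA1 (chr9:33025023-33025322 on the plus strand) are shown because they were the called members of smallest p that held a heat shock factor motif, in capitals.
HSPA8: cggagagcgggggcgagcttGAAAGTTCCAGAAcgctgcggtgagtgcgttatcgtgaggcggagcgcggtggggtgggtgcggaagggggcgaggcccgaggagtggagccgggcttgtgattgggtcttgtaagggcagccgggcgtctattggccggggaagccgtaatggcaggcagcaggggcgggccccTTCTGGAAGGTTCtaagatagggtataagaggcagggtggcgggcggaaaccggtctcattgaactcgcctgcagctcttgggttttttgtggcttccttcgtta
DNAJA1: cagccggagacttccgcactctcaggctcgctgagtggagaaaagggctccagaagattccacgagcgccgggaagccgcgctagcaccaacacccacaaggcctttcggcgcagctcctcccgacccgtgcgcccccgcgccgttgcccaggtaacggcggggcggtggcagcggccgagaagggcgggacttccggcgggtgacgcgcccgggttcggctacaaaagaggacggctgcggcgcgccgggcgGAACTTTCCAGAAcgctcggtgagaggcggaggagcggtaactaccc
The motif was searched on both strands as GAANNTTCNNGAA or TTCNNGAANNTTC. HSPA8 held 2 matches and DNAJA1 held 1. Among the HSP70 and HSP90 group 4 of 23 (17.4%) windows held a match, beside 31 of 9871 (0.314%) over all tested genes. Among genes called lower the number was 3 of 668 (0.449%), and among genes called higher 1 of 572 (0.175%).

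The metabolic genes that fell included several of glycolysis. Of 22 glycolysis genes tested 9 fell and 0 rose (median -0.72). GAPDH (chr12:6533927-6538374, plus strand) had 183 and 263 CPM with BRM014, against 542 and 539 CPM with DMSO (log2 change -1.28, SE 0.13, adjusted p = 5.25e-14). TPI1, triose phosphate isomerase, had 28.0 and 40.7 CPM with BRM014, against 89.6 and 108 CPM with DMSO (log2 change -1.51, SE 0.26, adjusted p = 7.94e-06), and SLC2A1, the glucose transporter GLUT1, had 51.6 and 59.0 CPM with BRM014, against 116 and 129.8 CPM with DMSO (log2 change -1.15, SE 0.24, adjusted p = 0.000204). In all 3 the higher treated library lay well below the lower control library. Lactate dehydrogenase LDHA (log2 change -0.77, adjusted p = 4.2e-05) and pyruvate kinase PKM (log2 change -0.68, adjusted p = 1.84e-05) fell by less. Of 23 genes for cholesterol synthesis and uptake 6 fell and 1, SC5D (log2 change 0.57, adjusted p = 0.0133), rose (median -0.18). Those that fell included INSIG1, the sterol-sensing retention factor (log2 change -0.57, adjusted p = 0.00387). Of 22 ATF4 targets and serine synthesis genes 2 fell and 2 rose (median -0.27), a called share of 18.2%, beside 12.4% of all tested genes. SHMT2 had 17.7 and 18.3 CPM with BRM014, against 117 and 91.5 CPM with DMSO. SLC3A2, a subunit of amino acid transporters, had 133 and 128 CPM with BRM014, against 223 and 247 CPM with DMSO (log2 change -0.85, adjusted p = 6.34e-05). DDIT4, an inhibitor of mTOR, had 111 and 89.9 CPM with BRM014, against 29.9 and 36.4 CPM with DMSO (log2 change 1.6, SE 0.35, adjusted p = 0.000538), and PSAT1 of serine synthesis rose by 0.76 (adjusted p = 0.0027). The call of PKM was lost with the correction for GC content and length (-0.28). The call of INSIG1 was lost without BRM014 replicate 1 (-0.49). The call of SC5D was lost with the correction for GC content and length (0.42), without BRM014 replicate 1 (0.41) and without DMSO replicate 1 (0.45). The log2 change of SLC3A2 was -0.47 with the correction for GC content and length. The call of PSAT1 was lost without BRM014 replicate 2 (0.59) and without DMSO replicate 2 (0.65). The count for glycolysis genes was 5 with the correction for GC content and length. The count for cholesterol genes was 3 with the correction for GC content and length, 2 without BRM014 replicate 1, 3 without BRM014 replicate 2 and 3 without DMSO replicate 1.

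Some genes of the ribosome fell. Of 50 cytoplasmic ribosomal protein genes 12 fell and 0 rose, with a median of -0.45, although reads of their near-identical pseudogenes could have been counted for them. RPL28 had 33.9 and 39.3 CPM with BRM014, against 85.1 and 95.3 CPM with DMSO (log2 change -1.29, SE 0.31, adjusted p = 0.00159), RPLP0 had 177 and 213 CPM with BRM014, against 320.3 and 304 CPM with DMSO (log2 change -0.68, SE 0.15, adjusted p = 0.000356), and RPL10 had 63.4 and 81.4 CPM with BRM014, against 173 and 118 CPM with DMSO (log2 change -1.01, SE 0.21, adjusted p = 0.000266). The groups did not overlap in any of the 3. Of 30 nucleolar genes for ribosome biogenesis 3 fell and 0 rose, beside 6.84% called lower over all tested genes (median -0.22): RRP1B (log2 change -0.86, adjusted p = 2.7e-05), the box C/D subunit NOP56 (log2 change -0.72, adjusted p = 0.000665) and nucleolin NCL (log2 change -0.43, adjusted p = 0.00138). The call of RPLP0 was lost with the correction for GC content and length (-0.32). The call of RPL10 was lost without DMSO replicate 1 (-0.70). The call of NOP56 was lost with the correction for GC content and length (-0.39) and without BRM014 replicate 2 (-0.43). The count for ribosomal protein genes was 5 with the correction for GC content and length, 5 without BRM014 replicate 1 and 3 without DMSO replicate 1.

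Genes of Wnt signalling moved in both directions. Of 38 tested genes 9 rose and 5 fell (median 0.00). Besides DKK1, DACT1, an intracellular antagonist, had 129.7 and 135 CPM with BRM014, against 35.1 and 42.0 CPM with DMSO (log2 change 1.78, SE 0.27, adjusted p = 3.17e-07), and the receptor FZD3 had 385 and 427 CPM with BRM014, against 265 and 217 CPM with DMSO (log2 change 0.75, SE 0.15, adjusted p = 6.55e-05). TLE3, a corepressor that binds TCF factors, had 67.8 and 117 CPM with BRM014, against 393 and 346 CPM with DMSO (log2 change -2.0, SE 0.20, adjusted p = 1.61e-13), and SFRP1, a secreted Wnt antagonist, had 50.1 and 44.9 CPM with BRM014, against 206 and 189 CPM with DMSO (log2 change -2.06, SE 0.25, adjusted p = 2.02e-10). Secreted antagonists were thus found on both sides, DKK1 higher and SFRP1 lower. In BMP and TGF-beta signalling 8 of 31 tested genes rose and 1 fell, the ligand BMP7 (log2 change -2.17, adjusted p = 0.0219), with a median of 0.44. Beside ID4, the BMP targets ID2 (712 and 699 CPM with BRM014, against 458 and 468 CPM with DMSO; log2 change 0.61, adjusted p = 4.45e-06) and ID1 (333 and 399 CPM with BRM014, against 245 and 191 CPM with DMSO; log2 change 0.74, adjusted p = 4.96e-05) rose. The receptors BMPR1A (284 and 291 CPM with BRM014, against 173 and 168 CPM with DMSO; log2 change 0.75, adjusted p = 0.000874) and BMPR2 (392 and 376 CPM with BRM014, against 209 and 272 CPM with DMSO; log2 change 0.68, adjusted p = 0.000843) rose as well. In Notch signalling 3 of 18 genes fell and 0 rose (median -0.43), a called share of 16.7%, beside 12.4% of all tested genes. LFNG, which modifies Notch receptors, had 2 and 4 counts with BRM014, against 32 and 42 with DMSO (log2 change -2.83, adjusted p = 0.00131), HES6 had 9 and 5 counts with BRM014, against 56 and 49 with DMSO (log2 change -2.11, adjusted p = 0.00164) and the ligand JAG2 had 0 and 1 counts with BRM014, against 7 and 15 with DMSO, with adjusted p = 0.029. These 3 genes had few counts with BRM014. The log2 change of FZD3 was 0.42 with the correction for GC content and length. The log2 change of ID1 was 1.19 with the correction for GC content and length. The call of BMPR2 was lost with DESeq2 (0.72) and without DMSO replicate 1 (0.50). Its log2 change was 0.43 with the correction for GC content and length. The call of HES6 was lost with the correction for GC content and length (-1.39) and without BRM014 replicate 2 (-1.71). The call of JAG2 was lost with the correction for GC content and length (-3.12), in the fit of the 4 IMR-32 libraries alone (-3.48), with DESeq2 (-3.67), without BRM014 replicate 1 (-2.65), without BRM014 replicate 2 (-6.60) and without DMSO replicate 2 (-2.70). The depth-scaled ratio of DMSO to BRM014 for JAG2 had an exact 95% counting interval of 2.05 to 524. The count for Wnt genes was 9 without BRM014 replicate 1 and 8 without DMSO replicate 1. The count for BMP and TGF-beta genes was 5 without DMSO replicate 2.

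The regulators of adrenergic identity were often called but moved in both directions. Of 30 tested, 7 rose and 7 fell (median -0.04), a called share of 46.7%, beside 12.4% of all tested genes. GATA3 had 556 and 649 CPM with BRM014, against 628 and 559 CPM with DMSO (log2 change 0.02, SE 0.10, adjusted p = 0.954), and HAND2, given above, was not called either. In both genes the groups overlapped. TBX2, a T-box repressor, had 239 and 191 CPM with BRM014, against 530.2 and 475 CPM with DMSO (log2 change -1.23, SE 0.14, adjusted p = 6.42e-12). ISL1 had 334 and 339.8 CPM with BRM014, against 481 and 436 CPM with DMSO (log2 change -0.45, SE 0.12, adjusted p = 0.00426). SOX4 (chr6:21592768-21598619, plus strand) rose, with 1485 and 1488 CPM with BRM014, against 488 and 542 CPM with DMSO (log2 change 1.53, SE 0.11, adjusted p = 1.18e-21), as did the homeobox factor SIX3, with 516 and 508 CPM with BRM014, against 248 and 158 CPM with DMSO (log2 change 1.32, SE 0.16, adjusted p = 2.18e-10). TBX2, ISL1, SOX4 and SIX3 had groups that did not overlap. Of 13 other neural crest factors 4 rose and 2 fell (median 0.00). FOXC1 had 385 and 354 CPM with BRM014, against 82.1 and 71.0 CPM with DMSO, SOX9 had 172 and 117 CPM with BRM014, against 35.8 and 29.9 CPM with DMSO and ZIC2 had 639.5 and 646 CPM with BRM014, against 321 and 331 CPM with DMSO (log2 change 0.98, adjusted p = 2.66e-06), all higher. MSX2 had 22.1 and 28.1 CPM with BRM014, against 120.2 and 87.8 CPM with DMSO (log2 change -2.05, adjusted p = 0.000117) and was lower. The remaining called members were NR2F2, higher (log2 change 0.72, adjusted p = 0.0192), and SNAI1, lower (log2 change -0.76, adjusted p = 0.0298). The call of NR2F2 was lost without BRM014 replicate 1 (0.52), without DMSO replicate 1 (0.77) and without DMSO replicate 2 (0.69). Of 15 mesenchymal regulators and markers 2 rose and 1 fell (median -0.27): TEAD1 (868 and 768 CPM with BRM014, against 478 and 511 CPM with DMSO; log2 change 0.73, adjusted p = 4.16e-07) and ID1, shared with the BMP list, were higher, and TWIST1 (174 and 157 CPM with BRM014, against 241 and 248 CPM with DMSO; log2 change -0.56, adjusted p = 0.0102) lower. The called share of the mesenchymal genes was 20%, beside 12.4% of all tested genes. Of 10 HOX genes tested 1 was called (10%). This gene, HOXD9, rose on 14 counts with BRM014 and 5 with DMSO. Its call was lost in 6 of 10 alternatives, the leaving out of any 1 library among them. The log2 change of TBX2 was -0.62 with the correction for GC content and length. The call of ISL1 was lost without DMSO replicate 1 (-0.37). The call of TWIST1 was lost with the correction for GC content and length (-0.18), without BRM014 replicate 2 (-0.49), without DMSO replicate 1 (-0.59) and without DMSO replicate 2 (-0.54). With the correction for GC content and length HAND2 was called higher (0.35, adjusted p = 0.00647). The count for adrenergic regulators was 9 without DMSO replicate 1.

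In noradrenergic function 3 of 25 tested genes fell and 0 rose (median -0.17). The called share was 12%, beside 12.4% of all tested genes. DDC, the decarboxylase that makes dopamine, had 0 and 0 counts with BRM014, against 20 and 19 with DMSO, at least 7.5-fold lower with BRM014, taking 3 counts over both libraries as the floor (adjusted p = 1.53e-05). SLC6A2, the noradrenaline transporter and uptake route of the imaging agent MIBG, had 122 and 143 CPM with BRM014, against 239.7 and 246 CPM with DMSO (log2 change -0.87, SE 0.18, adjusted p = 0.000137). SCG2, a granin of secretory vesicles, had 60.4 and 46.3 CPM with BRM014, against 134 and 134 CPM with DMSO (log2 change -1.33, SE 0.24, adjusted p = 2.06e-05). All 3 had both treated libraries below both controls, as had nearly all genes called lower. The call of SLC6A2 was lost with DESeq2 (-0.82). The count for noradrenergic genes was 5 in the fit of the 4 IMR-32 libraries alone.

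Among guidance genes, the called share was 16.0% of semaphorins, plexins and neuropilins and 16.0% of ephrin, SLIT and netrin genes, beside 12.4% of all tested genes. Of 25 semaphorins, plexins and neuropilins 3 fell and 1 rose (median -0.10). NRP1 (chr10:33177492-33336262, minus strand) had 22.1 and 47.7 CPM with BRM014, against 219 and 233 CPM with DMSO (log2 change -2.68, SE 0.22, adjusted p = 2.57e-17). NRP2, the other neuropilin, had 38.3 and 53.3 CPM with BRM014, against 120.2 and 107 CPM with DMSO (log2 change -1.31, SE 0.23, adjusted p = 7.39e-06), and the co-receptor PLXNA1 had 11.8 and 35.1 CPM with BRM014, against 78.4 and 86.8 CPM with DMSO (log2 change -1.79, SE 0.32, adjusted p = 1.43e-05). The ligand SEMA6A was higher, with 73.7 and 80.0 CPM with BRM014, against 26.1 and 40.2 CPM with DMSO (log2 change 1.24, SE 0.24, adjusted p = 7.24e-05). Among ephrins, SLIT, ROBO and netrin genes 3 of 25 fell, all of them UNC5 receptors, and 1 rose, the netrin receptor NEO1 (median -0.68). UNC5B had 261 and 171 CPM with BRM014, against 535 and 432 CPM with DMSO (log2 change -1.17, SE 0.15, adjusted p = 7.85e-10), UNC5C had a log2 change -0.73, adjusted p = 0.0128, UNC5A had 0 and 2 counts with BRM014, against 19 and 16 with DMSO (adjusted p = 0.0448), and NEO1 had a log2 change 1.14, adjusted p = 0.00389. UNC5B was the best measured of the 4. The log2 change of PLXNA1 was -2.79 without BRM014 replicate 2. The call of UNC5C was lost without BRM014 replicate 1 (-0.69), without BRM014 replicate 2 (-0.78) and without DMSO replicate 2 (-0.66). The call of NEO1 was lost without BRM014 replicate 2 (0.82) and without DMSO replicate 1 (0.94). The call of UNC5A was lost with the correction for GC content and length (-2.78), with the replicate block (-3.33), without BRM014 replicate 1 (-2.33), without BRM014 replicate 2 (-7.23), without DMSO replicate 1 (-3.29) and without DMSO replicate 2 (-3.22). The count for the ephrin, SLIT and netrin genes was 2 without BRM014 replicate 1, 1 without BRM014 replicate 2 and 2 without DMSO replicate 1.

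Of 20 receptor tyrosine kinases and co-receptors 6 fell and 0 rose (median -0.41). DDR2, a collagen receptor, had 177 and 156 CPM with BRM014, against 341 and 366 CPM with DMSO (log2 change -1.09, SE 0.16, adjusted p = 7.2e-08). ALK, the kinase mutated in familial neuroblastoma, had 29.5 and 25.3 CPM with BRM014, against 69.4 and 62.6 CPM with DMSO (log2 change -1.27, SE 0.37, adjusted p = 0.011). PDGFRB had 0 and 0 counts with BRM014, against 17 and 2 with DMSO, at least 3.66-fold lower with BRM014 against the floor (adjusted p = 0.0105). Its DMSO libraries differed from each other, and its call was lost without DMSO replicate 1, without either BRM014 library and in the fit of the 4 IMR-32 libraries alone. Of 22 secreted growth factors and binding proteins 6 fell and 0 rose (median -0.87). IGFBP4 was given above. PGF had 28.0 and 19.7 CPM with BRM014, against 172 and 159 CPM with DMSO (log2 change -2.80, SE 0.31, adjusted p = 5.33e-12). VEGFA had 5 and 14 counts with BRM014, against 75 and 41 with DMSO (log2 change -1.79, SE 0.44, adjusted p = 0.00202). ANGPT2 had 0 and 0 counts with BRM014, against 9 and 10 with DMSO, at least 3.66-fold lower (adjusted p = 0.016), a call lost without DMSO replicate 2, without either BRM014 library and in the fit of the 4 IMR-32 libraries alone. Among genes that report ERK activity 5 of 27 rose and 0 fell (median 0.12), a called share of 18.5%, beside 12.4% of all tested genes. ETV5 had 289 and 268 CPM with BRM014, against 101 and 113 CPM with DMSO (log2 change 1.38, SE 0.19, adjusted p = 8.45e-09), DUSP6, a phosphatase of ERK, had 64.8 and 54.8 CPM with BRM014, against 14.2 and 23.3 CPM with DMSO (log2 change 1.69, SE 0.35, adjusted p = 0.000175), and EGR1 had 186 and 212 CPM with BRM014, against 41.1 and 53.2 CPM with DMSO. Each was higher in both treated libraries. ETV1 (log2 change 1.43, adjusted p = 0.00105) and FOS (log2 change 2.51, adjusted p = 0.0211) rose on fewer counts. The call of ALK was lost with the correction for GC content and length (-0.95), without BRM014 replicate 1 (-1.38), without BRM014 replicate 2 (-1.16) and without DMSO replicate 1 (-1.19). The call of VEGFA was lost without BRM014 replicate 1 (-1.27) and without DMSO replicate 1 (-1.48). The call of ETV1 was lost without BRM014 replicate 1 (0.82). The call of FOS was lost without BRM014 replicate 2 (1.80), without DMSO replicate 1 (2.48) and without DMSO replicate 2 (2.53). The count for receptor tyrosine kinases was 2 without BRM014 replicate 1, 2 without BRM014 replicate 2 and 2 without DMSO replicate 1. The count for growth factors was 3 without BRM014 replicate 1, 3 without BRM014 replicate 2 and 3 without DMSO replicate 1.

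Neuronal genes split. Of 33 receptors of transmitters and peptides 3 rose and 3 fell (median -0.22), a called share of 18.2%, beside 12.4% of all tested genes. NPR3 was the largest rise and CCKAR the largest fall among those with counts in both groups. CHRNA5 (log2 change 0.39, adjusted p = 0.0431) was the remaining rise. CHRNB4, a subunit of ganglionic nicotinic receptors, had 441 and 526 CPM with BRM014, against 297 and 280.2 CPM with DMSO (log2 change 0.74, SE 0.14, adjusted p = 2.02e-05). CHRM1, a muscarinic receptor, had 0 and 0 counts with BRM014, against 17 and 29 with DMSO, at least 8.85-fold lower with BRM014 (adjusted p = 0.00354). The nicotinic subunit gene was higher in both treated libraries and the muscarinic gene had no count in either. Of 34 voltage-gated channels 4 rose and 5 fell (median 0.00). SCN3B, a beta subunit of sodium channels, had 103 and 98.3 CPM with BRM014, against 333 and 379 CPM with DMSO (log2 change -1.82, SE 0.19, adjusted p = 3.1e-13), and CACNA2D1, an auxiliary calcium channel subunit, had 788 and 653 CPM with BRM014, against 425 and 448 CPM with DMSO (log2 change 0.72, SE 0.12, adjusted p = 5.05e-06). Other channels called were CACNB4 (log2 change 1.45, adjusted p = 0.00311) and KCNH2 (log2 change 0.91, adjusted p = 0.0323), higher, and KCNK3 (log2 change -1.69, adjusted p = 0.0124), KCNJ12 (log2 change -2.61, adjusted p = 0.0193), HCN4 (log2 change -1.50, adjusted p = 0.0265) and KCNC4, lower. KCNC4 had 2 and 1 counts with BRM014, against 33 and 11 with DMSO. Of 53 synaptic and cytoskeletal genes of neurons 5 rose and 10 fell (median 0.00). CNTN1, an axonal adhesion molecule, had 165 and 187 CPM with BRM014, against 48.5 and 50.4 CPM with DMSO (log2 change 1.83, SE 0.19, adjusted p = 6.29e-13), MAP2 of dendrites had 274 and 261 CPM with BRM014, against 109.8 and 93.4 CPM with DMSO (log2 change 1.39, SE 0.17, adjusted p = 1.78e-10), and the RNA-binding protein ELAVL4 had 1039 and 986 CPM with BRM014, against 586 and 661 CPM with DMSO (log2 change 0.70, SE 0.10, adjusted p = 9.12e-08). These 3 were higher with BRM014, as were MAP1B, given above, and NCAM1 (log2 change 0.71, adjusted p = 0.0044), while CNTN2 (7.37 and 22.5 CPM with BRM014, against 100.1 and 110.2 CPM with DMSO) and the vesicle protein CPLX2 (75.2 and 105 CPM with BRM014, against 252 and 216 CPM with DMSO; log2 change -1.37, adjusted p = 4.3e-07) were lower. The call of CHRM1 was lost without DMSO replicate 2 (-7.00). The call of CHRNA5 was lost with no filter on low counts (0.37), with the correction for GC content and length (0.31), without BRM014 replicate 1 (0.42), without BRM014 replicate 2 (0.35), without DMSO replicate 1 (0.33) and without DMSO replicate 2 (0.45). The call of CACNB4 was lost without BRM014 replicate 1 (1.25) and without DMSO replicate 1 (1.31). The call of KCNK3 was lost with the correction for GC content and length (-1.38), without BRM014 replicate 1 (-1.31) and without DMSO replicate 2 (-1.43). The call of KCNC4 was lost without BRM014 replicate 2 (-2.56) and without DMSO replicate 1 (-2.20). The count for receptors was 3 with DESeq2 and 3 without DMSO replicate 2. The count for channels was 5 without BRM014 replicate 1, 5 without BRM014 replicate 2, 4 without DMSO replicate 1 and 5 without DMSO replicate 2.

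Of 37 collagens, laminins and matrix proteins 6 fell and 2 rose (median -0.51), LAMC1 and the crosslinking enzyme LOX (log2 change 1.36, adjusted p = 0.0122). The called share of these matrix genes was 21.6%, beside 12.4% of all tested genes. LAMB1 had 159 and 191 CPM with BRM014, against 406 and 398 CPM with DMSO (log2 change -1.20, SE 0.18, adjusted p = 1.66e-07), while LAMC1, its partner in laminin, had 172 and 121 CPM with BRM014, against 81.4 and 77.5 CPM with DMSO (log2 change 0.88, SE 0.22, adjusted p = 0.00289). The inhibitors of metalloproteases TIMP3 (193 and 205 CPM with BRM014, against 479 and 402 CPM with DMSO; log2 change -1.15, adjusted p = 6.9e-07) and TIMP2 (698 and 475 CPM with BRM014, against 869.9 and 916 CPM with DMSO; log2 change -0.61, adjusted p = 0.000274) fell. The laminin chains thus lay on opposite sides. Of 28 tested genes for BAF subunits, the complex that BRM014 inhibits, 4 rose and 2 fell (median 0.06). The called share of these subunits was 21.4%, beside 12.4% of all tested genes. BICRAL, a subunit of the GBAF form, had 296 and 284 CPM with BRM014, against 90.4 and 91.5 CPM with DMSO (log2 change 1.67, SE 0.19, adjusted p = 3.3e-11). ARID2, of the PBAF form, had 579 and 494 CPM with BRM014, against 344 and 369 CPM with DMSO (log2 change 0.59, SE 0.12, adjusted p = 0.000253), and SS18 had 202 and 202 CPM with BRM014, against 98.6 and 145 CPM with DMSO (log2 change 0.74, SE 0.20, adjusted p = 0.0045). ARID1B rose too (log2 change 0.42, adjusted p = 0.0329). DPF1, a neuronal subunit, had 2 and 0 counts with BRM014, against 21 and 20 with DMSO (adjusted p = 0.00162), and ACTB, also a subunit, was given above. BICRAL, ARID2 and SS18 were higher in both treated libraries, and DPF1 and ACTB lower. Of 10 targets of the aryl hydrocarbon receptor and NRF2 1 rose, TIPARP (log2 change 0.96, adjusted p = 0.00311), and 0 fell (median 0.12). The called share of these targets was 10%, beside 12.4% of all tested genes. The call of LAMC1 was lost without BRM014 replicate 1 (0.60). The call of TIMP2 was lost without BRM014 replicate 2 (-0.35). Its log2 change was -0.36 with the correction for GC content and length. The call of SS18 was lost without DMSO replicate 1 (0.48). The call of TIPARP was lost without BRM014 replicate 2 (0.49) and without DMSO replicate 2 (0.86). The call of DPF1 was lost without BRM014 replicate 2 (-2.50). Its log2 change was -7.46 without BRM014 replicate 1. The count for matrix genes was 4 without BRM014 replicate 2 and 4 without DMSO replicate 1. The count for BAF subunits was 3 without DMSO replicate 1.

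**Figure D4:**
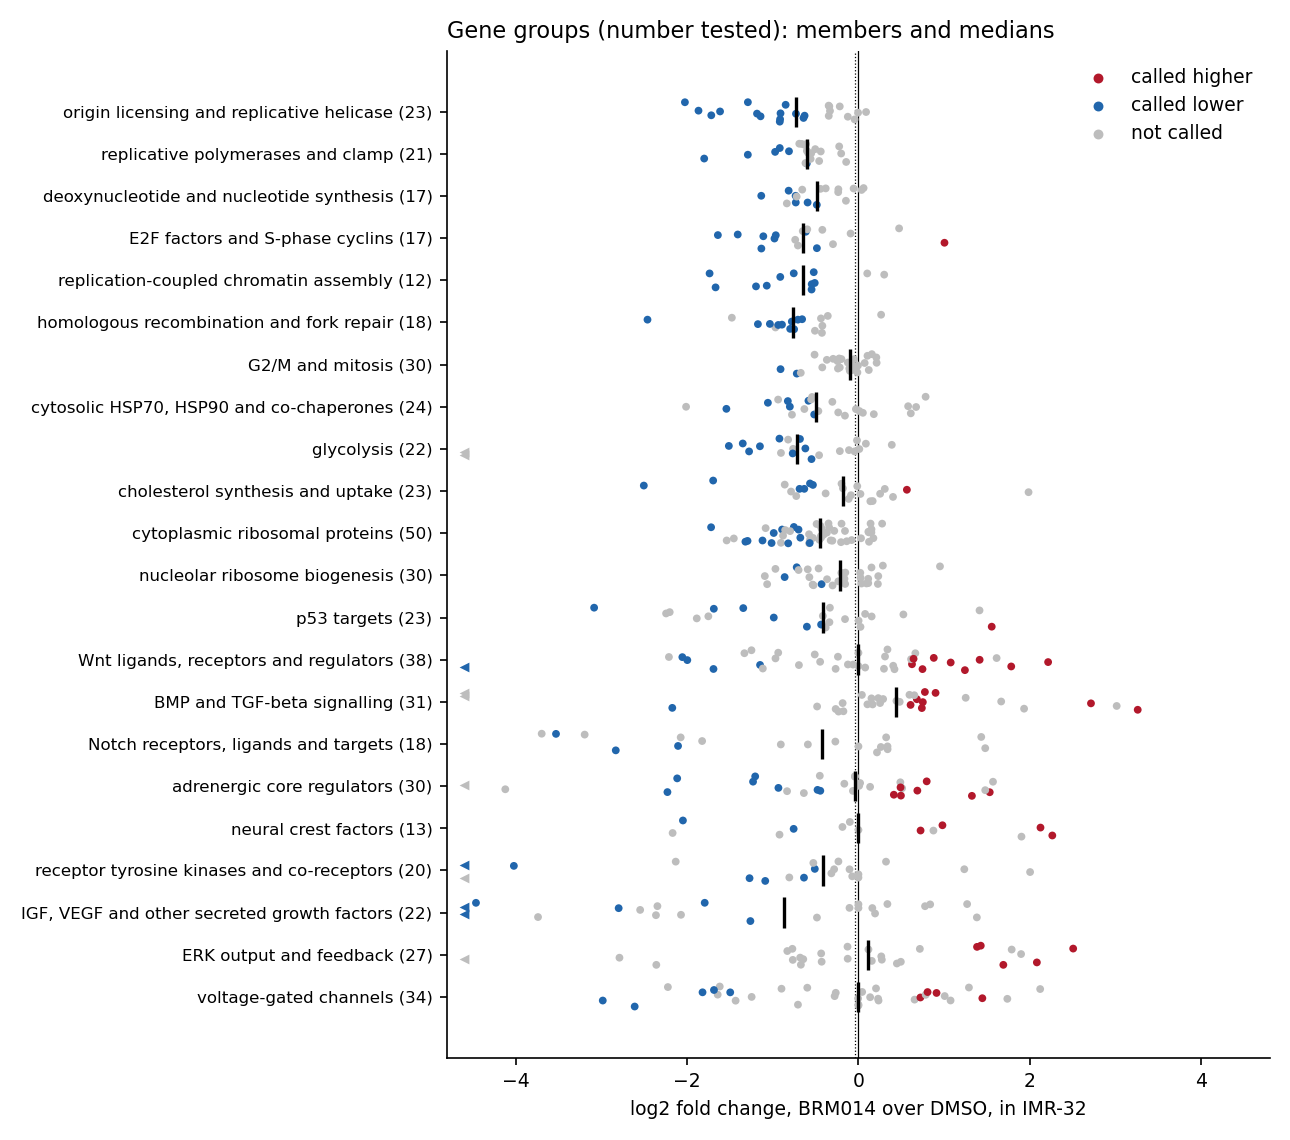
Each point is a tested gene of a group, placed at its log2 fold change, BRM014 over DMSO in IMR-32; red and blue points are genes called higher or lower, grey points are not called, black bars are medians and arrowheads are values beyond the axis. The medians of the first 6 groups lie between -0.49 and -0.76, the mitotic group at -0.10 and BMP and TGF-beta signalling at 0.44; the dotted line is the median of all tested genes, -0.04.

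The IMR-32 response was set against the mean response of KELLY and SK-N-DZ in the same fit, by a test of the difference of the log2 changes. It differed for 336 of 12444 genes (2.7%), 125 with a more positive change in IMR-32 (1%) and 211 with a more negative one (1.7%). RUNX1T1, a corepressor, changed by -1.15 (SE 0.14) in IMR-32, 1.35 (SE 0.13) in KELLY and 1.41 (SE 0.13) in SK-N-DZ (difference -2.53, SE 0.17, adjusted p = 6.43e-23). NRP1 changed by -2.68 (SE 0.22) in IMR-32, 0.72 (SE 0.15) in KELLY and 0.09 (SE 0.17) in SK-N-DZ (difference -3.08, SE 0.25, adjusted p = 2.16e-17), and NRP2 by -1.31 (SE 0.23) in IMR-32, 2.51 (SE 0.19) in KELLY and 1.26 (SE 0.16) in SK-N-DZ (difference -3.20, SE 0.25, adjusted p = 5.65e-18). Both neuropilins fell in IMR-32, and NRP2 rose in both other lines. EML5, a microtubule-associated protein, changed by -1.59 (SE 0.14) in IMR-32, 0.77 (SE 0.11) in KELLY and 0.13 (SE 0.11) in SK-N-DZ (difference -2.04, SE 0.16, adjusted p = 9.28e-19). ISL1 changed by -0.45 (SE 0.12) in IMR-32, 1.78 (SE 0.11) in KELLY and 0.53 (SE 0.11) in SK-N-DZ (difference -1.6, SE 0.14, adjusted p = 3.47e-16), and SYT1, the calcium sensor of vesicle release, by -0.45 (SE 0.11) in IMR-32, 1.45 (SE 0.12) in KELLY and 0.72 (SE 0.11) in SK-N-DZ (difference -1.54, SE 0.14, adjusted p = 4.18e-15). EML5, ISL1 and SYT1 fell in IMR-32 and rose in KELLY. The actin-binding SYNPO2, not called in IMR-32, changed by 0.30 (SE 0.16) in IMR-32, 3.46 (SE 0.24) in KELLY and 1.24 (SE 0.17) in SK-N-DZ (difference -2.05, SE 0.22, adjusted p = 1.35e-11).

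On the positive side, METTL7A changed by 3.05 (SE 0.32) in IMR-32, 0.36 (SE 0.28) in KELLY and -0.80 (SE 0.49) in SK-N-DZ (difference 3.28, SE 0.42, adjusted p = 4.92e-09). PROX1, a homeobox factor of neurogenesis, had 301 and 295 CPM with BRM014, against 114 and 135 CPM with DMSO in IMR-32, and changed by 1.26 (SE 0.15) in IMR-32, -0.73 (SE 0.12) in KELLY and -1.0 (SE 0.19) in SK-N-DZ (difference 2.13, SE 0.19, adjusted p = 7.23e-16). HRK, a BH3-only gene that promotes apoptosis, had 922 and 886 CPM with BRM014, against 305 and 326 CPM with DMSO in IMR-32, and changed by 1.52 (SE 0.14) in IMR-32, -1.28 (SE 0.29) in KELLY and -0.40 (SE 0.27) in SK-N-DZ (difference 2.36, SE 0.24, adjusted p = 7.54e-13). These 3 genes rose in IMR-32, and none was called higher in KELLY or SK-N-DZ. HAND1, a paralogue of HAND2, changed by 0.69 (SE 0.20) in IMR-32, -1.47 (SE 0.14) in KELLY and -0.50 (SE 0.14) in SK-N-DZ (difference 1.67, SE 0.22, adjusted p = 1.81e-08), TXNIP, which binds thioredoxin, by 0.40 (SE 0.11) in IMR-32, -1.10 (SE 0.10) in KELLY and -0.50 (SE 0.11) in SK-N-DZ (difference 1.20, SE 0.13, adjusted p = 4.65e-11), and HEG1, a membrane glycoprotein, by 0.58 (SE 0.15) in IMR-32, -1.12 (SE 0.20) in KELLY and -1.31 (SE 0.19) in SK-N-DZ (difference 1.80, SE 0.20, adjusted p = 6.37e-11). HAND1, TXNIP and HEG1 rose in IMR-32 and fell in both other lines. FAT1, a giant cadherin, changed by 1.48 (SE 0.19) in IMR-32, 0.19 (SE 0.19) in KELLY and -1.16 (SE 0.25) in SK-N-DZ (difference 1.97, SE 0.24, adjusted p = 1.45e-09). AHNAK, a large scaffold protein, fell in all 3 lines, with log2 changes of -0.97 (SE 0.20) in IMR-32, -2.55 (SE 0.28) in KELLY and -3.93 (SE 0.30) in SK-N-DZ (difference 2.27, SE 0.30, adjusted p = 1.67e-08). None of the 9 alternatives that include the other lines ended the call of any of these differences. The IMR-32 call of HAND1 was lost with DESeq2 (0.74), without BRM014 replicate 2 (0.58) and without DMSO replicate 2 (0.56). Its log2 change was 1.07 with the correction for GC content and length. The IMR-32 call of TXNIP was lost without BRM014 replicate 2 (0.37), without DMSO replicate 1 (0.39) and without DMSO replicate 2 (0.41). The IMR-32 call of HEG1 was lost without BRM014 replicate 2 (0.54) and without DMSO replicate 1 (0.56). The IMR-32 call of SYT1 was lost without DMSO replicate 1 (-0.40). The IMR-32 call of AHNAK was lost with DESeq2 (-0.93). The count of differing genes was 205 without DMSO replicate 1 of IMR-32.

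**Figure D5:**
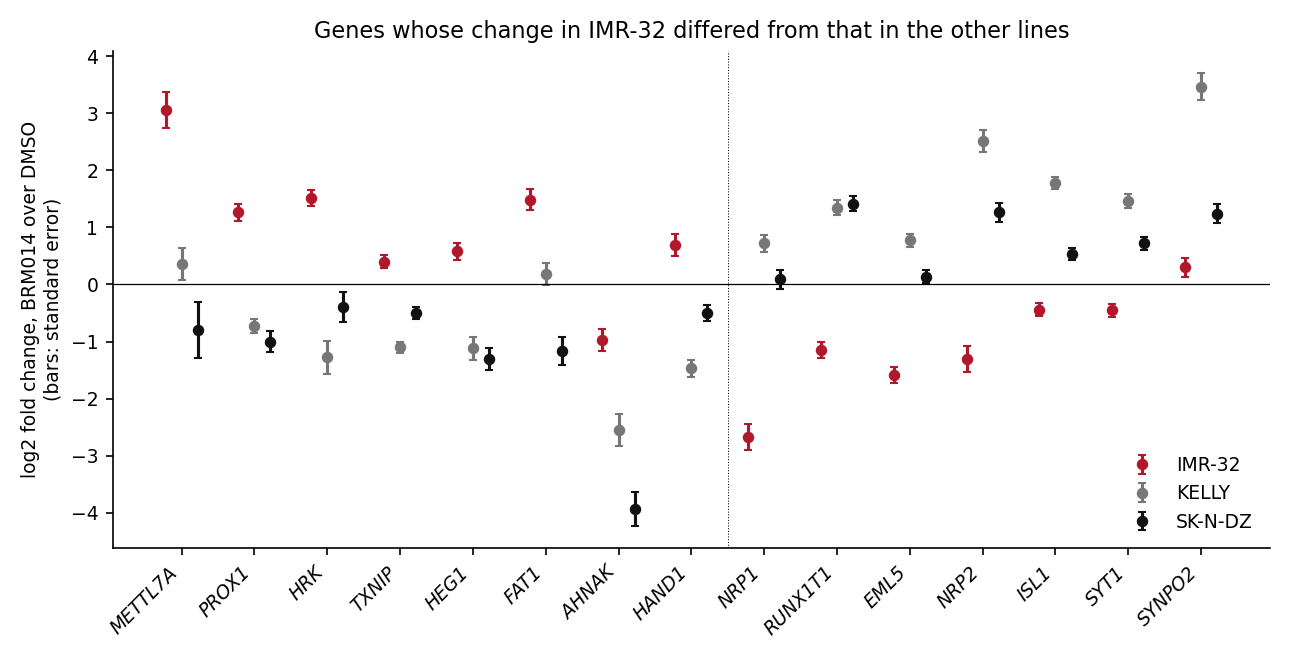
The log2 fold change with BRM014 over DMSO is shown for IMR-32 (red), KELLY (grey) and SK-N-DZ (black), with standard errors of the fit, for 15 genes of small p, with a more positive (left of the dotted line) or more negative (right) change in IMR-32. NRP1, RUNX1T1, EML5, NRP2, ISL1 and SYT1 lie below 0 in IMR-32 and above 0 in the other lines.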

How the data were processed

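The authors deposited raw counts per gene symbol as whole numbers, 1 file per library. Per the submitters' processing notes, the tools were HISAT, HTSeq and DESeq2 and the build hg38, with no version. The annotation, the strand setting and the rule for counting a read were not given in the sources used here, so overlapping or antisense genes and near-identical copies are uncertain. Each file lists 28063 genes; its summary lines, such as reads with no feature, entered neither library sizes nor tests. Groups and replicates follow the sample titles. No label says that replicates were separate cultures, and p-values therefore measure only how far these libraries spread, a spread that may be technical. The intervals and floors given for low counts cover counting error only.

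The test was edgeR's quasi-likelihood F-test (edgeR 4.0.16, R 4.3.3, limma 3.58.1) with TMM factors and filterByExpr, which kept 12444 genes; 15619 were left out, and 189 of those kept had 0 counts in all 4 IMR-32 libraries. The model had 1 mean per group over 12 labelled IMR-32, KELLY and SK-N-DZ libraries, with 6 residual degrees of freedom and a biological coefficient of variation of 0.148. Libraries of SMARCA4-mAID cells and unlabelled cells were not used in the model. Chi-square per degree of freedom between the libraries of a group was 2.19 (BRM014) and 2.24 (DMSO), so none was a repeat of another. The test was also run on simulated counts built from this fit, and no result given here rests on them. Adjusted p-values are Benjamini-Hochberg over all tested genes, with calls below 0.05. Log2 changes are BRM014 over DMSO, with SE from the fit. Alternatives were median-ratio (RLE) factors, no filter, DESeq2 1.42.0, a replicate block, a loess correction of each library for GC content and length (GENCODE v29, 12112 genes with values), the 4 IMR-32 libraries alone, and each library left out.

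The comparison and the 39 gene lists were chosen with earlier results of these data known. Lists are described by counts and medians with no test. The count for a list under an alternative takes higher and lower calls together. It is given only where it differed from the main count by more than 1.5-fold, so smaller changes are not shown. Named genes were the 15 largest called changes each way with non-overlapping libraries and a group mean of 50 counts or more (unnamed transcripts left out), the 8 called genes of highest CPM each way, the 8 smallest p of the difference between lines each way, up to 5 called members of each list, and 10 fixed genes. E2F5, BMP7, SNAI1, LOX, ARID1B, NCAM1, KCNH2, KCNJ12 and HCN4, which complete small counts, were chosen after their values were seen, and their values under the alternatives are not given. Some genes that met these rules are not reported here. Coordinates are from GENCODE v29 (GRCh38) and promoter windows from RefSeq (GRCh38.p14). Glial markers were too low to test (0 of 11), and of 16 epithelial, endothelial, blood and muscle markers 1 was tested and not called.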

Additional observations from a re-analysis of the deposited data

Results flagged for a closer look

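For the named genes that follow, the BRM014 effect in IMR-32 differed from the mean effect in KELLY and SK-N-DZ (edgeR test of the difference, Benjamini-Hochberg adjusted p in parentheses below). The differences, IMR-32 minus the mean of the others, of genes described above with their values in each line were METTL7A 3.28, NRP1 -3.08, PROX1 2.13, HRK 2.36, TXNIP 1.20, HEG1 1.80, FAT1 1.97, AHNAK 2.27, HAND1 1.67, RUNX1T1 -2.53, EML5 -2.04, NRP2 -3.20, ISL1 -1.6, SYT1 -1.54 and SYNPO2 -2.05.

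The effect was more positive in IMR-32 for ARHGEF3 by 2.68 (2.85e-05), EGR1 by 1.58 (0.0195), KDM7A by 1.23 (0.000353), ZBTB18 by 0.44 (0.0165), DDIT4 by 1.49 (0.0424), PSAT1 by 0.84 (0.0274), CDKN1A by 2.16 (0.000998), ID1 by 0.84 (0.000747) and GFRA2 by 1.43 (0.000143). EGR1, ARHGEF3, KDM7A, DDIT4, PSAT1, ID1 and ZBTB18 rose in IMR-32, and CDKN1A and GFRA2 fell there. The IMR-32 call of GFRA2 was lost with median-ratio scaling (-0.46), with the correction for GC content and length (-0.24), in the fit of the 4 IMR-32 libraries alone (-0.49), with DESeq2 (-0.46), without BRM014 replicate 1 (-0.55), without BRM014 replicate 2 (-0.47), without DMSO replicate 1 (-0.52) and without DMSO replicate 2 (-0.50). CDKN1A changed by -1.69 (SE 0.32) in IMR-32, -2.82 (SE 0.27) in KELLY and -4.87 (SE 0.42) in SK-N-DZ. GFRA2 changed by -0.51 in IMR-32, -3.69 in KELLY and -0.18 in SK-N-DZ, so its change was more positive in IMR-32 than in KELLY only.

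The effect was more negative in IMR-32 for DKK1 by -1.02 (1.91e-06), TMEM132A by -2.77 (0.000304), SHMT2 by -1.51 (0.0213), RCOR2 by -1.68 (0.00476), FAM84A by -0.86 (1.13e-07), SOX11 by -0.62 (9.3e-05), MYCN by -0.44 (6.19e-05), KPNA2 by -0.39 (0.0149), MKI67 by -0.57 (0.00284), IDI1 by -0.56 (0.0463), SFRP1 by -1.14 (0.0178), TWIST1 by -1.30 (5.43e-07), DDC by -6.36 (0.00672), DDR2 by -0.72 (0.0277), ANGPT2 by -7.35 (0.0277), SCN3B by -1.11 (0.00358), ELAVL4 by -1.07 (2.1e-10) and TIMP3 by -2.86 (0.0463). DKK1 was higher with BRM014 in all 3 lines, with log2 changes of 2.21 (SE 0.11) in IMR-32, 2.89 (SE 0.12) in KELLY and 3.58 (SE 0.18) in SK-N-DZ, as were FAM84A, SOX11 and ELAVL4. MYCN changed by -0.48 (SE 0.07) in IMR-32, -0.53 (SE 0.07) in KELLY and 0.46 (SE 0.07) in SK-N-DZ, so its change was more negative in IMR-32 than in SK-N-DZ only. KPNA2 changed by -0.28 in IMR-32, -0.21 in KELLY and 0.43 in SK-N-DZ, so IMR-32 lay close to KELLY. DDR2 changed by -1.09 in IMR-32, 0.10 in KELLY and -0.83 in SK-N-DZ, so IMR-32 lay closer to SK-N-DZ. TWIST1 changed by -0.56 (SE 0.16) in IMR-32, 1.39 (SE 0.14) in KELLY and 0.08 (SE 0.16) in SK-N-DZ. TIMP3 changed by -1.15 in IMR-32, 3.54 in KELLY and -0.11 in SK-N-DZ, so IMR-32 lay much further from KELLY than from SK-N-DZ. The fitted differences of DDC and ANGPT2 rest on 0 counts with BRM014 and are no bound. In SK-N-DZ, too, the BRM014 libraries held fewer gene counts than the DMSO libraries (724913 and 758288, against 1589230 and 1740475). In KELLY they held 1505376 and 1512030 counts, against 1590402 and 1235931. The part of these totals in the differences was not tested.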

How the results depend on the processing

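Of 193 named genes called in IMR-32, 118 kept direction and call under every alternative that gave them a value (CCKAR had none with DESeq2), and none reversed. Calls were lost for 5 with median-ratio scaling, 2 with no filter on low counts, 25 with the correction for GC content and length, 6 in the fit of the 4 IMR-32 libraries alone, 12 of 189 with DESeq2, and 30 to 44 with 1 library left out, where a lone library was assumed to vary like the other groups. HAND2, not called (-0.04), was called higher with the correction (0.35); the cause was not tested. Calls in IMR-32 numbered 1539 with median-ratio scaling, 1391 with no filter, 1277 with the correction, 1699 from the 4 libraries alone, 1471 with DESeq2, and 828 to 1028 with 1 library left out. The differences from the other lines numbered 319, 331, 326 and 310 under the settings that include the other lines, in the same order, and 205 to 269 with 1 library left out; fewer libraries are tested there. The replicate block gave 1531 calls and 360 differences, and ended 2 named calls, CDKN2D and UNC5A. Same-numbered IMR-32 libraries did not deviate together over all tested genes (correlation -0.01). Counting noise in low genes weakens such a correlation, so it cannot show whether the numbers pair the libraries. The lower totals of the BRM014 libraries limit genes with few counts there, such as CCKAR, JAG2 and CLPP, whose ratios have wide counting intervals.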

Other observations

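The share of tested genes called differed among chromosomes. On chromosome 19, 8 of 817 tested genes were called higher with BRM014 (0.979%) and 60 lower (7.34%). On chromosome 16 the shares were 1.73% and 7.29%, and on chromosome 22 they were 2.87% and 12.2%. The reverse balance was seen on chromosome 13, with 8.81% higher and 4.41% lower, on chromosome 4, with 8.62% and 6.12%, and on chromosome 6, with 8.80% and 5.28%. These chromosomes were picked after their values were seen, and over all tested genes the shares were 5.54% and 6.84%. Chromosomes differ in gene GC content, which went with the direction of change as described, and its part in these shares was not tested.

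Among the remaining motifs searched in promoter windows, the E-box CACGTG was in 55 of 572 (9.62%) windows of genes called higher, 69 of 668 (10.3%) of genes called lower and 905 of 8631 (10.5%) of genes not called. The CCAAT box was in 203 of 572 (35.5%), 277 of 668 (41.5%) and 3200 of 8631 (37.1%), and the CREB half-site TGACG in 182 of 572 (31.8%), 227 of 668 (34.0%) and 3074 of 8631 (35.6%). Among mitotic genes 20 of 25 (80.0%) windows held a CCAAT box. Motifs were searched on both strands.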
